A study of Mus musculus with 12 samples.

Results

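The biliary lineage genes described here are Sox9, Epcam, Krt19, Krt7, Krt8, Krt18, Spp1 and Onecut1. The 8 genes were taken by symbol from the deposited matrices, where they stood among 31053 genes at embryonic stage E16.5 and 22597 genes at postnatal day 3 (P3). They were followed in 184493 barcodes of 9 distinct libraries, each barcode with at least 1000 unique molecular identifiers (UMIs, counted transcript molecules) and at most 15% of them on mitochondrial genes. Barcodes with UMIs of 2 or more of Epcam, Krt19, Krt7 and Sox9 were also counted, because a duct cell would be expected to carry several of these 4 genes at once.

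Whole livers of Jag1+/+, Jag1Ndr/+ and Jag1Ndr/Ndr mice were profiled by droplet single-cell RNA sequencing, with 2 samples labelled for each of the 6 combinations of genotype and stage. Ndr is the Nodder allele of Jag1, carried by the whole animal, and homozygotes serve as a model of Alagille syndrome, a disease of few bile ducts. Per the labels, the homozygous pups at P3 were chosen by jaundice, and only the E16.5 livers were treated with TrypLE. The comparisons that the genes allow are E16.5 Jag1Ndr/Ndr against the other E16.5 libraries, and P3 against E16.5.

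The 12 matrices did not hold 12 sets of cells. At E16.5, replicate 2 of Jag1+/+ and replicate 2 of Jag1Ndr/+ held the same values throughout. They were used once, as the shared library, beside Jag1+/+ replicate 1, Jag1Ndr/+ replicate 1 and Jag1Ndr/Ndr replicates 1 and 2. At P3, matrices under different genotype labels shared from 62.1% to 100% of the smaller list's barcodes in the pairs that overlapped, so the genotype of P3 libraries A and B is unclear. Libraries A and B, read from replicates 1 and 2 of Jag1+/+, also occur under a homozygous label, library B also under a heterozygous one, library C is what Jag1Ndr/Ndr replicate 1 holds beyond library A, and library D is Jag1Ndr/+ replicate 1. No P3 genotype comparison was therefore made. Each library held 15024 to 29034 passing barcodes, with medians of 5325 to 9256 UMIs at E16.5 and 2961 to 6235 at P3. Stage coincided with the digestion and with the version of the counting software, and these cannot be told apart. The deposited barcodes also started at different depths. In the E16.5 libraries and library C, 0 fell under 1000 UMIs, against 3414, 2522 and 2822 in A, B and D. This lower limit thus differed among the P3 libraries and, in part, with stage. Nothing in the labels says that replicates of a group came from separate litters, so the p-values measure only the spread between these libraries.

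Bile ducts form from hepatoblasts, the bipotent progenitors of the fetal liver. Next to the portal vein, Jag1 on portal mesenchyme activates Notch receptors on hepatoblasts, which turn on Sox9 and gather into a ductal plate. Plate cells that stay in the biliary lineage keep Epcam, an epithelial adhesion molecule, and Spp1, the secreted protein osteopontin, and gain the keratins Krt19 and Krt7, while Krt8 and Krt18 form the filaments of hepatocytes and duct cells alike. Onecut1 (HNF6) is a transcription factor of hepatoblasts and hepatocytes that is also needed for normal duct formation. None of the keratins is restricted to bile ducts, and the mesothelium, the cell layer that covers the liver, also makes Krt19, Krt7, Krt8 and Krt18.

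By Ensembl identifier in GENCODE M21 on GRCm38, Krt8 (ENSMUSG00000049382) lies on the minus strand of chromosome 15 from 101996698 to 102004482 and Krt18 (ENSMUSG00000023043) on the plus strand from 102028180 to 102032027, 23698 bases apart. Krt7 (ENSMUSG00000023039) lies on the same chromosome at 101411043 to 101430313, 566385 bases from Krt8. The other members are on other chromosomes: Krt19 (ENSMUSG00000020911) on 11 at 100140810 to 100148665, Sox9 (ENSMUSG00000000567) on 11 at 112782224 to 112787760, Epcam (ENSMUSG00000045394) on 17 at 87635979 to 87651129, Spp1 (ENSMUSG00000029304) on 5 at 104435118 to 104441050 and Onecut1 (ENSMUSG00000043013) on 9 at 74861921 to 74891781. RefSeq promoter windows on GRCm38.p6, from 250 bases before to 50 after the start that RefSeq gives, were found for 6 of the 8 genes, not for Sox9 and Krt19. RefSeq's start is not always the outer end of the GENCODE gene given above, and the Krt7 window lies wholly within that gene. The windows of the 3 chromosome 15 keratins are shown because Krt8 and Krt18 varied together across cell classes and Krt7 followed another pattern. Capitals mark matches, on either strand, to ATTGAT, the core that Onecut1 protein binds, and to TATAAA, the TATA box. The windows are chr15:102004293-102004592 (minus strand) for Krt8, chr15:102027966-102028265 (plus strand) for Krt18 and chr15:101412153-101412452 (plus strand) for Krt7.
Krt8: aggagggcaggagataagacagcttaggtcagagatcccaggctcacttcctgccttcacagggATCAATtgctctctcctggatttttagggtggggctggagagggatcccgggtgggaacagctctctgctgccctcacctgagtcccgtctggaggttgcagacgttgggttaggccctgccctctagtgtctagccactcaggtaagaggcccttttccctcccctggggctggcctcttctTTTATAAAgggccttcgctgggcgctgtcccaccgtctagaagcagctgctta
Krt18: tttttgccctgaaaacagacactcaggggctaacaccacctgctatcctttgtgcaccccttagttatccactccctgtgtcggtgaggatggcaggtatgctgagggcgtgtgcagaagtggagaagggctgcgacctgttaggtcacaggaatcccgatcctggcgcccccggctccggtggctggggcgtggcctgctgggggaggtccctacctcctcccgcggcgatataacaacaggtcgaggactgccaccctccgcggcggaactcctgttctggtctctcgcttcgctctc
Krt7: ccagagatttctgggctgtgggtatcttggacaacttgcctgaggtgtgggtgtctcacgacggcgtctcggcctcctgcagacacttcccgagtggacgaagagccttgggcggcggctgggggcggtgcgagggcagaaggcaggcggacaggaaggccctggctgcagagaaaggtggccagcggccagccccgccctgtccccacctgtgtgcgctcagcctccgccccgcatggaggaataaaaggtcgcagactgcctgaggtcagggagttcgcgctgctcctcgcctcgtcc
The Krt8 window held 1 ATTGAT match, read as ATCAAT on the strand shown, and 2 overlapping TATAAA matches that are 1 element read on both strands. The Krt18 and Krt7 windows held neither sequence. Of 27025 RefSeq promoter windows, 7.76% held ATTGAT and 14.2% held TATAAA, so a single match is common and describes letters only.

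Summed over all passing barcodes, every one of the 8 genes was scarce in these livers, in which most barcodes were blood cells. The levels below are UMIs per 1000000 UMIs of the library (CPM). In whole-liver sums, fewer cells of a type and less RNA per cell cannot be told apart. E16.5 values are given in the order Jag1+/+ replicate 1, shared library, Jag1Ndr/+ replicate 1, Jag1Ndr/Ndr replicate 1 and Jag1Ndr/Ndr replicate 2, and P3 values in the order A, B, C and D.

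**Figure D1:**
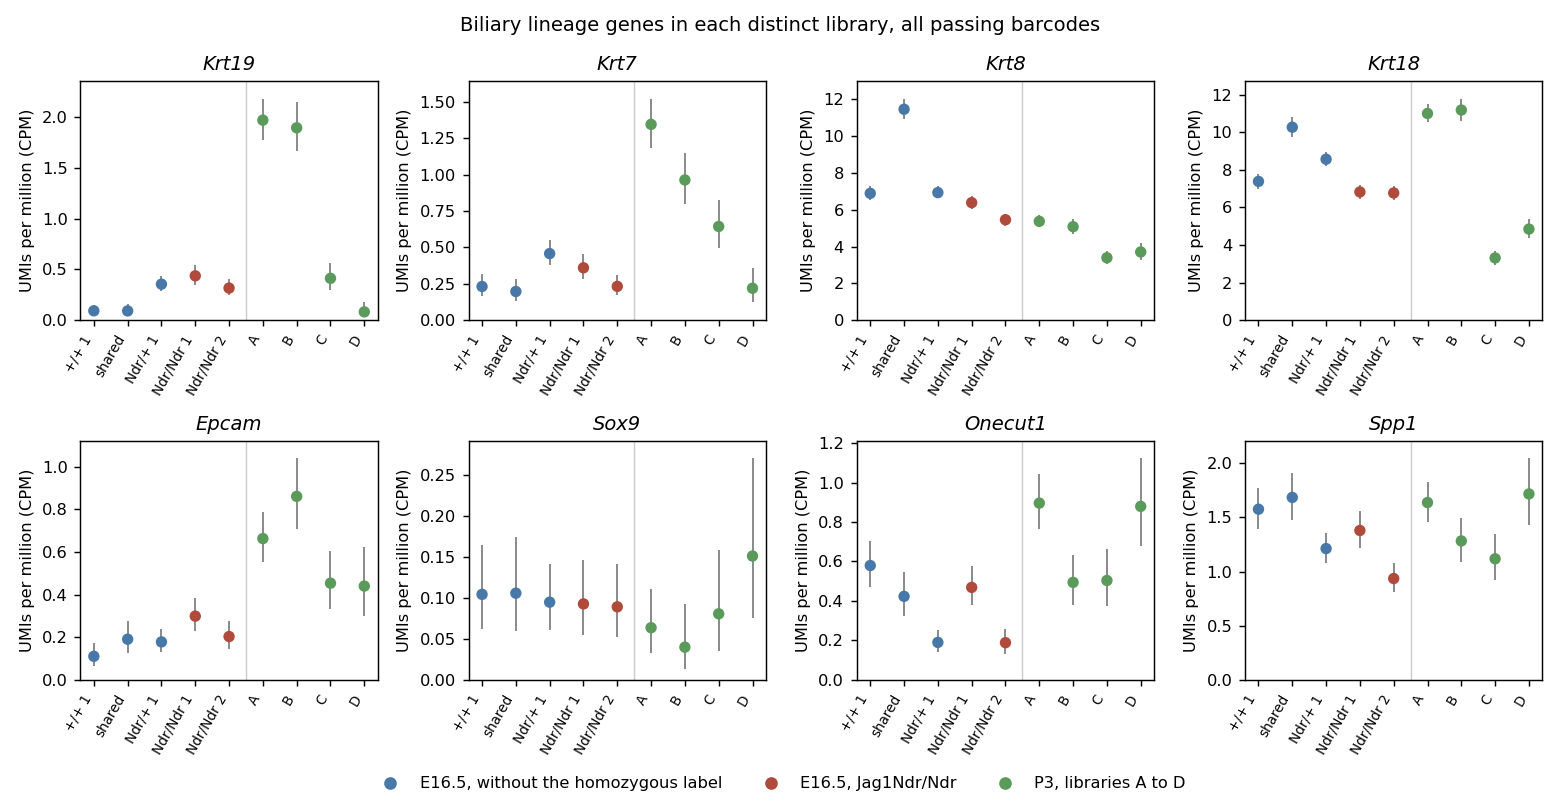
Level of each of the 8 genes (CPM over all passing barcodes, linear axes from 0) in the 5 E16.5 libraries (left of the line) and the 4 P3 libraries (right). Points are libraries, colours mark stage and homozygous label, and bars are exact 95% Poisson intervals, which cover counting error only. Krt8 lies lower in the P3 libraries (3.39 to 5.38 CPM) than at E16.5 (5.46 to 11.5 CPM), and Epcam higher.

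Krt8 stood at 6.90, 11.5, 6.94, 6.39 and 5.46 CPM at E16.5 and at 5.38, 5.08, 3.39 and 3.71 CPM at P3. Krt18, its filament partner, stood at 7.39, 10.3, 8.57, 6.83 and 6.77 CPM at E16.5 and at 11.004, 11.2, 3.31 and 4.85 CPM at P3. All 4 P3 libraries lay below all E16.5 libraries for Krt8, whereas for Krt18 the P3 libraries A and B lay above and C and D below every E16.5 library. The shared library was the highest E16.5 library for both keratins.

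Krt19 was at 0.093, 0.092, 0.355, 0.438 and 0.317 CPM at E16.5 and at 1.97, 1.90, 0.413 and 0.082 CPM at P3. Krt7 was at 0.232, 0.197, 0.458, 0.360 and 0.233 CPM at E16.5 and at 1.35, 0.964, 0.645 and 0.220 CPM at P3. Both keratins were therefore high in libraries A and B and low in library D, and the P3 range enclosed the E16.5 range for Krt19. At E16.5 the Jag1Ndr/+ replicate 1 library grouped with the homozygous libraries for Krt19, not with Jag1+/+ replicate 1.

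Epcam was at 0.110, 0.190, 0.178, 0.299 and 0.203 CPM at E16.5 and at 0.663, 0.861, 0.453 and 0.440 CPM at P3, with no overlap between the stages. Sox9 was at 0.104, 0.106, 0.095, 0.093 and 0.089 CPM at E16.5 and at 0.064, 0.040, 0.081 and 0.151 CPM at P3. Sox9 thus varied little at E16.5 (0.0973 ± 0.00734 CPM, SD, n = 5) and by more at P3 (0.0838 ± 0.0479 CPM, SD, n = 4), on few molecules in every library. Spp1 was at 1.58, 1.69, 1.21, 1.38 and 0.936 CPM at E16.5 and at 1.64, 1.28, 1.12 and 1.72 CPM at P3, and Onecut1 was at 0.579, 0.423, 0.190, 0.469 and 0.188 CPM at E16.5 and at 0.896, 0.494, 0.504 and 0.879 CPM at P3. The stages overlapped for Sox9, Spp1 and Onecut1.

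Barcodes were grouped into classes by clustering without the 8 genes and without 20 other biliary genes, and a class was named "-like" from marker genes. No cluster had a bile duct or mesothelial marker among its 10 leading genes, so none was called cholangiocyte-like or mesothelial-like. The epithelial class was hepatocyte-like (2785 barcodes at E16.5, 1254 at P3), and a small mesenchymal-like class (307 and 155) held Krt19 and Krt7. The mesenchymal-like class was led by collagen genes at both stages but had more mesothelial content at P3, with Upk3b at 826 CPM against 188 CPM at E16.5. Levels across classes are given as a description, without a test.

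**Figure D2:**
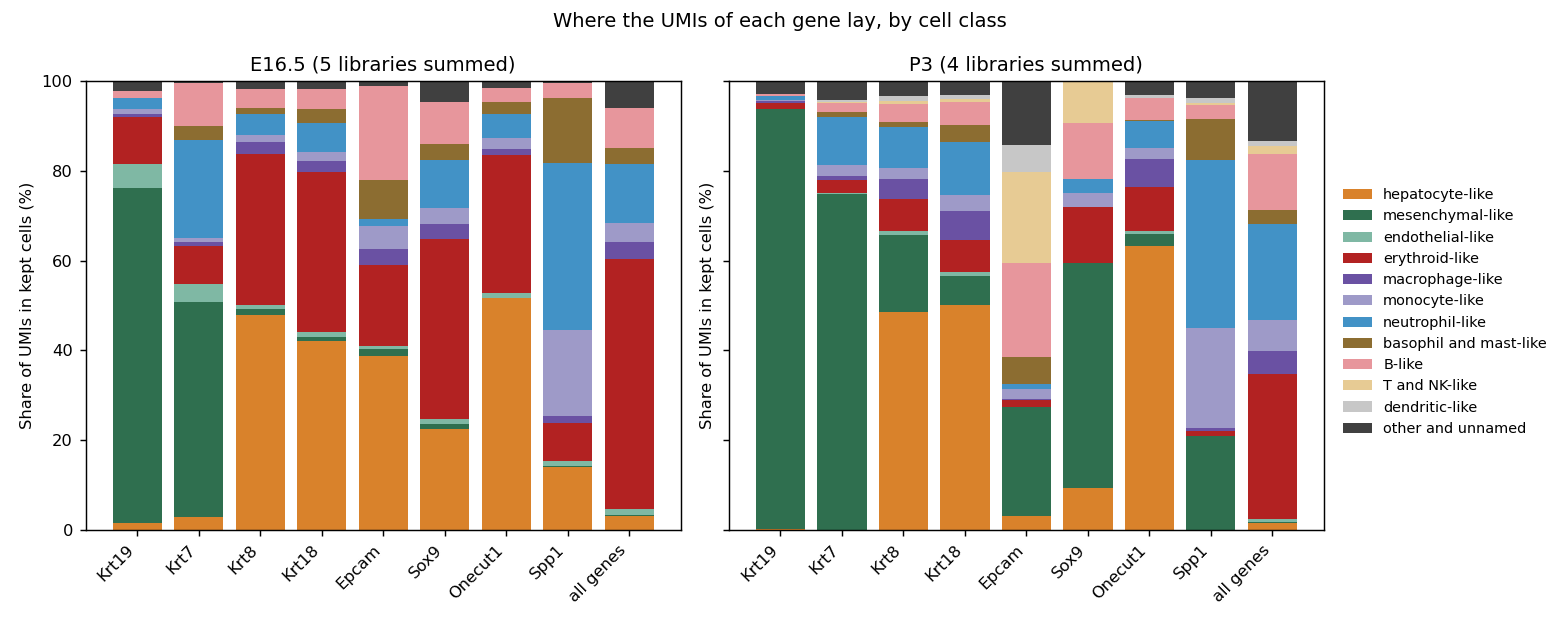
Share of each gene's UMIs in kept cells (%, stacked bars, libraries summed) by cell class, E16.5 left and P3 right, with the share of all genes' UMIs as the last bar. Krt19 lies mostly in mesenchymal-like barcodes (74.7% and 93.7%), while the largest share of Krt8, Krt18 and Onecut1 UMIs lies in hepatocyte-like ones and that of Spp1 in neutrophil-like ones.

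The hepatocyte-like class held the largest share of Krt8 and Krt18 UMIs at both stages. Hepatocyte-like barcodes held 3.15% of all UMIs at E16.5 and 1.60% at P3, yet 47.9% and 48.5% of Krt8 UMIs and 42.2% and 50.01% of Krt18 UMIs. At E16.5, Krt8 averaged 116 ± 24.6 CPM (SD, n = 5 libraries) in hepatocyte-like barcodes, then 38.1 ± 12.5 CPM in mesenchymal-like ones, with no overlap between the libraries of the pair. Krt18 followed the same order at E16.5, with 112 ± 10.7 CPM in hepatocyte-like and 27.3 ± 12.0 CPM in mesenchymal-like barcodes. At P3 the order changed for Krt8, at 359 ± 58.6 CPM (SD, n = 4) in mesenchymal-like and 167 ± 31.7 CPM in hepatocyte-like barcodes, again with no overlap. In library D, however, 21 of the 22 mesenchymal-like Krt8 UMIs came from 1 barcode that carried many biliary genes. Without the 3 mesenchymal-like barcodes that held 8 or more of the 20 other biliary genes, a threshold chosen after seeing the values, the P3 mesenchymal-like level of Krt8 was 302, 397, 263 and 20.1 CPM, and library D lay below every hepatocyte-like value. For Krt18 at P3 the classes overlapped, at 272 ± 144 CPM in hepatocyte-like and 227 ± 102 CPM in mesenchymal-like barcodes.

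For Krt19 and Krt7 the largest share lay in the mesenchymal-like class. This class held 0.251% of all UMIs at E16.5 and 0.253% at P3, but 74.7% and 93.7% of Krt19 UMIs and 47.9% and 74.9% of Krt7 UMIs. Krt19 in mesenchymal-like barcodes was at 18.5, 22.3, 129, 168 and 88.1 CPM in the E16.5 libraries and at 530, 841, 334 and 110 CPM in the P3 libraries. Krt7 was at 15.8, 28.7, 114, 107 and 38.3 CPM at E16.5 and at 294, 331, 361 and 73.4 CPM at P3. Jag1+/+ replicate 1 and the shared library were the lowest for both genes, and the P3 library D, with 17 such barcodes, lay within the E16.5 range. The 1254 hepatocyte-like barcodes at P3 held 1 UMI of Krt19 and 0 of Krt7, counts at or under the limit of 3 counts that a count of 0 allows.

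Within the mesenchymal-like class, both keratins followed the mesothelial genes Msln, Upk3b, Upk1b, Lrrn4, Wt1, Gpm6a and Muc16. Barcodes with 2 or more of these 7 genes made up 48 of 307 mesenchymal-like barcodes at E16.5 and 90 of 155 at P3. Krt19 pooled over libraries was at 357 CPM in these barcodes and at 0.62 CPM in the other mesenchymal-like barcodes at E16.5, and at 781 against 20.1 CPM at P3. Krt7 was at 254 CPM against 0 UMIs at E16.5 and at 410 against 13.4 CPM at P3. The lower P3 values rested on 6 Krt19 and 4 Krt7 UMIs, of which 5 and 3 lay in the 3 barcodes rich in biliary genes, and without these both genes stood at 3.55 CPM. The separation was seen in each library: Krt19 in barcodes with 2 or more mesothelial genes was at 119, 160, 375, 425 and 445 CPM at E16.5 and at 681, 1173, 542 and 245 CPM at P3, while the remaining barcodes gave at most 2.38 CPM at E16.5 and 49.2 CPM at P3. The share of mesenchymal-like barcodes with mesothelial genes was thus higher at P3, and its part in the stage difference of Krt19 and Krt7 was not tested. Krt8 was at 110 against 14.996 CPM at E16.5 and at 418 against 131 CPM at P3 across the same split, and Krt18 at 60.8 against 14.996 CPM and at 293 against 107 CPM. For Krt8 and Krt18 the libraries overlapped across the split at both stages, at E16.5 with 17.0 to 160 against 8.52 to 22.2 CPM for Krt8 and 0 to 109 against 2.84 to 25.3 CPM for Krt18. Of the 39 Krt8 and 32 Krt18 UMIs in P3 barcodes with under 2 mesothelial genes, 36 and 29 came from the same 3 barcodes rich in biliary genes, and without them both keratins stood at 10.7 CPM there. Without them the P3 libraries no longer overlapped across the split for Krt8, at 49.0 to 542 against 0 to 26.1 CPM. For Krt18 they still did, at 0 to 408 against 0 to 27.2 CPM.

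**Figure D3:**
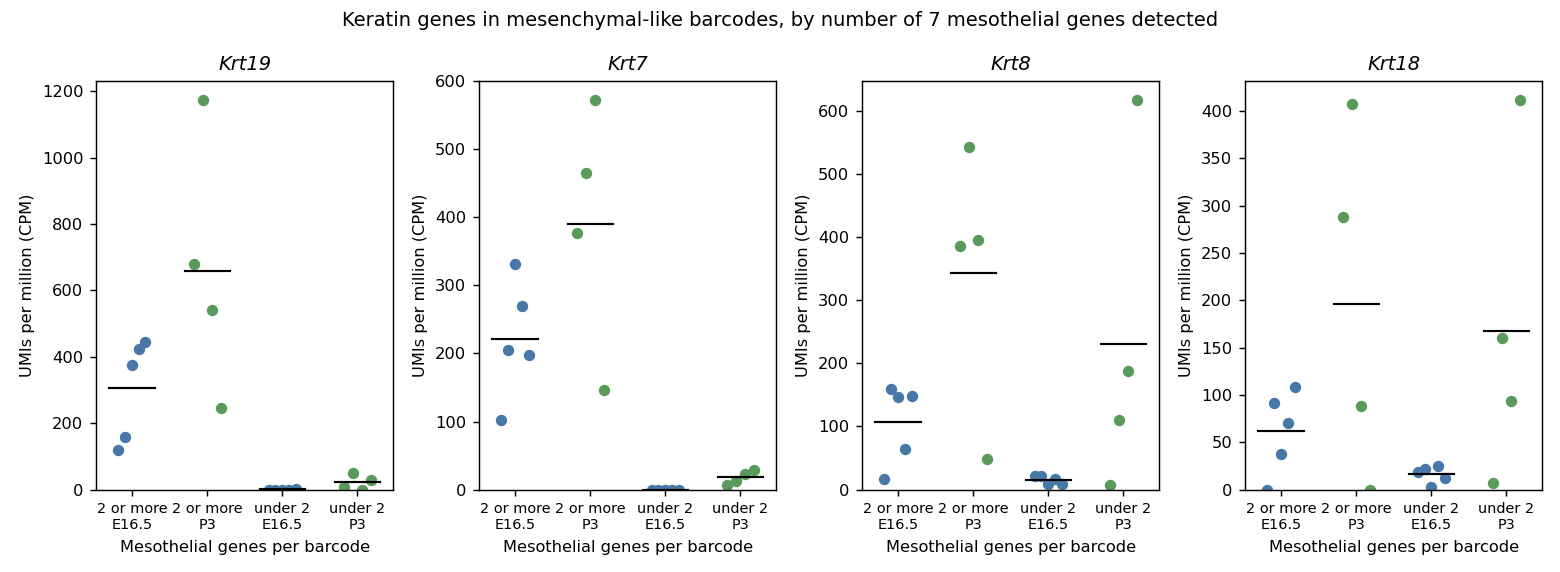
Krt19, Krt7, Krt8 and Krt18 (CPM, linear axes from 0) in mesenchymal-like barcodes with 2 or more or under 2 of the 7 mesothelial genes, at E16.5 (blue) and P3 (green). Points are libraries and lines are means over libraries. Krt19 and Krt7 are at or near 0 in the barcodes with fewer mesothelial genes, and Krt8 and Krt18 overlap across the split at both stages. The overlap of Krt8 at P3 is due only to the barcodes rich in biliary genes, which are included here.

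The genes whose levels ran most like the keratins across 45 pairs of class and library at E16.5 were read off log2(CPM + 1), among 8498 genes. The points share libraries and depth, so Pearson's r is a description only. For Krt19 they were Upk1b (r = 0.99), Upk3b (0.99) and Sema3c (0.98), and for Krt7 Aldh1a2 (0.98), Upk3b (0.98) and Adgrd1 (0.97), where Upk1b and Upk3b encode mesothelial uroplakins. Krt8 ran with Fxyd1 (0.96), Krt18 (0.95) and Mpzl2 (0.95), and Krt18 with Ephx2 (0.96), Krt8 (0.95) and Fah (0.95), where Ephx2 and Fah encode liver enzymes. Onecut1 ran with Slc44a3 (0.93), Acsm1 (0.92) and Cfhr2 (0.91). The best matches of Spp1 reached only 0.66 (Osm, Sema4a and Rab11fip1). Sox9 and Epcam had under 200 UMIs in these classes and were not ranked.

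Onecut1 UMIs lay mainly in the hepatocyte-like class at both stages, with 51.7% of its UMIs in that class at E16.5 and 63.2% at P3. Its level there was 16.4, 5.08, 2.08, 9.41 and 3.37 CPM at E16.5 and 28.9, 20.1, 31.04 and 55.0 CPM at P3. The next named class at E16.5, basophil- and mast-like, averaged 0.265 ± 0.252 CPM, below every hepatocyte-like library. At P3 the mesenchymal-like class came next, at 18.6 ± 19.2 CPM, and overlapped the hepatocyte-like range. That value rested on 9 Onecut1 UMIs, 8 of them in the 3 mesenchymal-like barcodes rich in biliary genes.

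Spp1, which macrophages and other blood cells also make, was found mainly in blood cells. Neutrophil-like barcodes held 37.2% of its UMIs at E16.5 and 37.3% at P3, with 13.1% and 21.2% of all UMIs. Monocyte-like barcodes held 19.1% and 22.2%, with 4.16% and 7.08% of all UMIs. Basophil- and mast-like barcodes held 14.5% and 9.25%, with 3.59% and 3.13% of all UMIs. Macrophage-like barcodes held only 1.65% and 0.81%, with 3.89% and 5.12% of all UMIs. In neutrophil-like barcodes Spp1 was at 6.23, 2.81, 2.20, 7.46 and 2.70 CPM at E16.5 and at 2.91, 2.39, 2.19 and 2.26 CPM at P3. In hepatocyte-like barcodes it was at 0.29, 0.98, 18.1, 0.72 and 5.82 CPM at E16.5, with Jag1Ndr/+ replicate 1 and Jag1Ndr/Ndr replicate 2 far above the others, and at 0 in all 4 P3 libraries. Of the 170 Spp1 UMIs in that class at E16.5, 157 came from 2 barcodes. The P3 mesenchymal-like value of 381 ± 477 CPM (SD, n = 4) rested on 129 UMIs in 3 barcodes, 1 each in libraries B, C and D, and library A had 0.

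Epcam and Sox9 were the sparsest members. The largest share of Epcam UMIs at E16.5 lay in hepatocyte-like barcodes (38.6%), where its level was 1.15, 0.33, 3.27, 6.03 and 2.30 CPM. Without the 3 hepatocyte-like barcodes rich in biliary genes, which held 22 of the 68 Epcam UMIs, the level was 1.15, 0.33, 1.94, 6.03 and 0.31 CPM. At P3 the mesenchymal-like class held 24.3% of Epcam UMIs, B-like barcodes 21.0% and T- and NK-like barcodes 20.2%. The mesenchymal-like level of Epcam at P3 was 44.7, 98.2, 63.1 and 55.1 CPM, above the 8.45 ± 3.24 CPM (SD, n = 4) of T- and NK-like barcodes in each library. Without the 3 barcodes rich in biliary genes it was 44.7, 71.2, 9.39 and 0 CPM, so that library D no longer lay above. Across the mesothelial split at P3, Epcam stood at 62.5 CPM in barcodes with 2 or more mesothelial genes and at 57.0 CPM in the rest, where all 17 UMIs came from the 3 barcodes rich in biliary genes and 0 were left without them. Sox9 gave 85 UMIs at E16.5, of which erythroid-like barcodes, with 55.6% of all UMIs, held 40.0% and hepatocyte-like barcodes 22.4%. It gave 32 UMIs at P3, of which mesenchymal-like barcodes held 16. The 3 mesenchymal-like barcodes rich in biliary genes held 3 Sox9 UMIs each. Without them the mesenchymal-like level of Sox9 ran from 0 to 11.2 CPM over the P3 libraries. No class order can be read for Sox9 at this depth.

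The comparison of P3 with E16.5 within hepatocyte-like barcodes asks how these genes stood in the parenchyma before and after birth. Krt8, Krt18 and Onecut1 were all higher at P3. They were the 3 members of 8 with enough counts for the test, and Sox9, Epcam, Krt19, Krt7 and Spp1 were not tested. All 3 passed an adjusted p of 0.05, where 42.2% of 10325 genes were called, 21.7% higher and 20.5% lower.

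Krt8 in hepatocyte-like barcodes was at 118, 143, 112, 128 and 77.3 CPM at E16.5 and at 124, 188, 164 and 193 CPM at P3. The fitted log2 difference was 0.67 (SE 0.17, adjusted p = 0.00614, edgeR's quasi-likelihood test, adjusted by Benjamini and Hochberg), although library A lay within the E16.5 range. Krt18 was at 119, 116, 115, 116 and 93.0 CPM at E16.5 and at 264, 470, 126 and 226 CPM at P3. The groups did not overlap, and the log2 difference of Krt18 was 1.44 (SE 0.28, adjusted p = 0.00106). For Onecut1, from 7.27 ± 5.82 CPM (SD, n = 5) at E16.5 to 33.8 ± 14.9 CPM (SD, n = 4) at P3, the log2 difference was 2.43 (SE 0.45, adjusted p = 0.000676), again without overlap.

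Hepatocyte-like barcodes were a mixture at both stages, some led by globin transcripts. The cluster led by Alb (albumin) made up 19.8% to 34.7% of the class per library at E16.5 and 31.4% to 53.9% at P3, and its median depth was 23328 UMIs at E16.5 and 2653.5 UMIs at P3. In this cluster alone, a choice made after seeing the data, Krt8 was at 170 CPM at E16.5 and 237 CPM at P3, Krt18 at 166 and 437 CPM, and Onecut1 at 9.33 and 47.9 CPM. All 3 stayed past the threshold there. With library totals in place of composition factors, Krt8 missed it (log2 difference 0.50, adjusted p = 0.052).

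**Figure D4:**
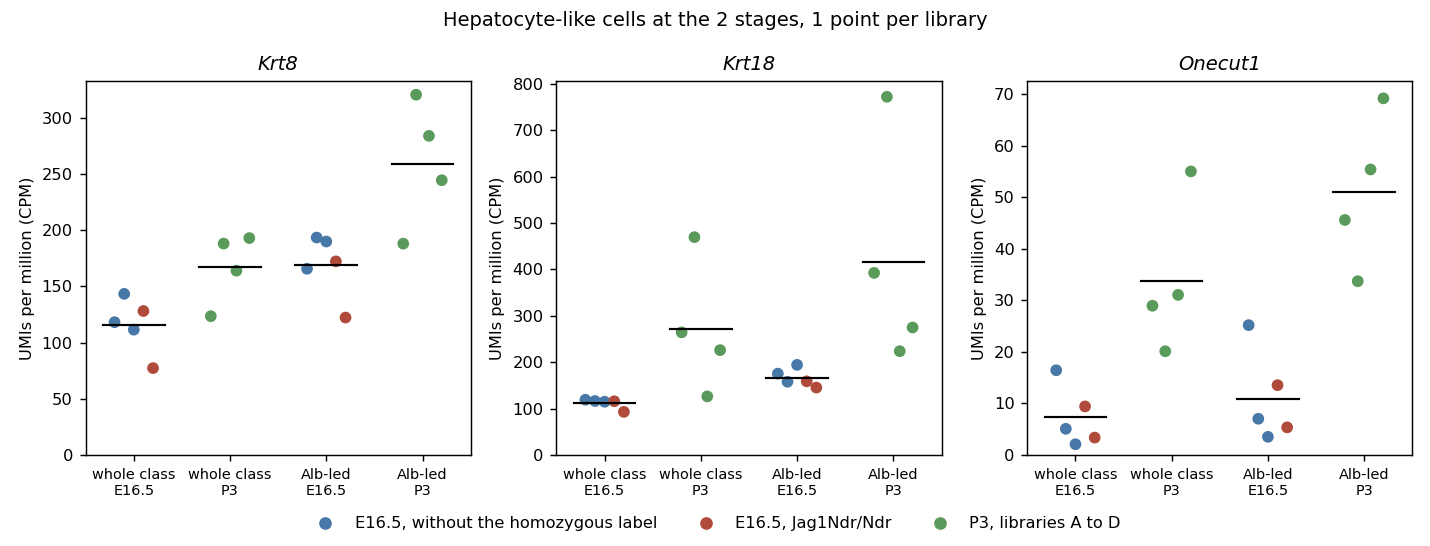
Krt8, Krt18 and Onecut1 (CPM, linear axes from 0) in the whole hepatocyte-like class and in its Alb-led cluster at E16.5 and P3. Points are libraries, lines are means over libraries and colours mark stage and homozygous label. Krt18 and Onecut1 show no overlap between stages in either set, and Krt8 overlaps through library A.

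Other genes of the same lineages did not all follow in hepatocyte-like barcodes. Of 20 other biliary genes, 9 were tested, 2 rose and 3 fell. The tight junction gene Cldn3 rose by a log2 difference of 5.97 (adjusted p = 1.3e-08), from 1.19 to 67.7 CPM pooled, and Krt23 by 4.34 (adjusted p = 9.3e-06). Prom1, a membrane protein of progenitors, fell by 1.93 and Bicc1, an RNA-binding protein, fell by 1.10. Of 12 hepatoblast and hepatocyte genes, all tested, 3 rose and 4 fell, among them the fetal genes Dlk1 (-6.81) and Afp (-1.83), Alb (-1.52) and the regulator Hnf4a (0.57). Of 9 Notch pathway genes, 5 were tested and 4 fell: Notch2 (-2.05), Maml1 (-1.09), Notch1 (-0.93) and Rbpj (-0.51). The medians of these lists were 0.07, -0.02 and -0.93, against -0.02 over all genes tested.

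Over all classes, 6 of the members had enough counts in at least 1 class, giving 23 tests between stages. Of these 23, 3 were higher and 3 lower at P3, where 46.9% of all gene and class pairs were called (23.6% higher and 23.2% lower). The higher ones were the hepatocyte-like differences above. The lower ones were Krt8 in erythroid-like barcodes (log2 difference -2.65, adjusted p = 0.000117), Krt18 in erythroid-like barcodes (-1.92, adjusted p = 0.00403) and Krt8 in B-like barcodes (-1.41, adjusted p = 0.00263). In erythroid-like barcodes 48.1% of all genes were called and 24.0% were lower, and in B-like barcodes 51.2% and 25.0%. Krt8 in erythroid-like barcodes was at 5.27, 6.88, 4.21, 4.37 and 3.31 CPM at E16.5 and at 1.31, 1.205, 0.985 and 0.858 CPM at P3, without overlap. In the same erythroid-like barcodes, 11 of the 11 hepatoblast and hepatocyte genes tested also fell, with Afp at -4.33, Alb at -4.09 and Dlk1 at -4.15, and in B-like barcodes 5 of 7 fell, with Afp at -3.74, Alb at -3.42 and Dlk1 at -3.15. The part of such hepatocyte RNA in the lower Krt8 and Krt18 of these classes was not tested. The mesenchymal-like class was not tested between stages because library D held fewer than 20 of its barcodes.

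Over all passing barcodes, all 8 genes had enough counts at both stages, and 3 were called, against 54.0% of 14504 genes (27.6% higher and 26.4% lower). Epcam rose by a log2 difference of 0.93 (SE 0.35, adjusted p = 0.040), Krt8 fell by 1.37 (SE 0.20, adjusted p = 0.000214) and Spp1 fell by 0.56 (adjusted p = 0.046). Krt19 (1.31, adjusted p = 0.18), Krt7 (0.69, adjusted p = 0.28), Krt18 (-0.72, adjusted p = 0.092), Sox9 (-0.95, adjusted p = 0.056) and Onecut1 (0.30, adjusted p = 0.50) did not pass. Krt18 passed with DESeq2 (-0.74, adjusted p = 0.0441) and without library A (-1.002, adjusted p = 0.0301), and Sox9 with the replicate block (-1.08, adjusted p = 0.0262) and without library D (-1.30, adjusted p = 0.0136), each 2 of 16 alternatives. These whole-liver differences depended on the scaling. With library totals alone the median over all genes moved from 0.02 to 0.61, and the log2 difference was 2.06 for Krt19 (adjusted p = 0.019), 1.41 for Krt7 (adjusted p = 0.013), 1.60 for Epcam (adjusted p = 0.0016), -0.78 for Krt8 (adjusted p = 0.020) and 0.06 for Spp1. Relative to that median, Spp1 stayed below the other genes and Epcam, Krt19 and Krt7 above. The call of Epcam was lost under 7 of 16 alternatives and that of Spp1 under 8, in 1 of which its sign turned.

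Beside the members, 11 of 12 hepatoblast and hepatocyte genes fell over all barcodes from E16.5 to P3 (median -2.14), including Alb (-3.62) and Afp (-3.95). Of 14 other biliary genes tested, 2 rose, among them Cldn3 (3.69), and 6 fell, among them Cdh1 (-2.26), Onecut2 (-1.46) and Tm4sf4 (-2.48). Of 9 Notch pathway genes 7 fell (median -1.11), among them Jag1 (-1.82), Hes1 (-1.18) and Heyl (-2.02). Of the mesothelial genes, 1 of 7 rose, Msln (2.63).

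The E16.5 genotype comparison asks whether homozygous livers differ in these genes at a stage when ducts are forming. None of the 8 genes passed the test between the 2 Jag1Ndr/Ndr libraries and the 3 other E16.5 libraries. All 8 were tested over all barcodes and 0 were called, as were 0 of 16262 genes (0.0%) by edgeR, 166 of which (1.02%) had an unadjusted p under 0.05 and 5 of which DESeq2 called. Krt8 averaged 5.92 ± 0.657 CPM (SD, n = 2) in homozygous and 8.43 ± 2.63 CPM (SD, n = 3) in the other libraries, a log2 difference of -0.35 (SE 0.21). Krt19 averaged 0.377 ± 0.0854 CPM and 0.17995 ± 0.152 CPM, a difference of 0.92 (SE 0.81), and Epcam 0.251 ± 0.0676 CPM and 0.159 ± 0.0432 CPM, a difference of 0.74 (SE 0.46). Without Jag1Ndr/+ replicate 1 these differences were 2.41 for Krt19 and 1.18 for Epcam, and over all libraries left out in turn they were 0.51 to 2.41 and 0.36 to 1.18, none past the threshold. The highest other library, Jag1Ndr/+ replicate 1 for Krt19, lay between the homozygous ones, whereas for Epcam both homozygous libraries lay above the 3 others. Krt18 (-0.26), Spp1 (-0.22), Sox9 (-0.07), Krt7 (-0.05) and Onecut1 (-0.05) lay nearer to 0, though each changed sign on leaving out some library. Every adjusted p was 1.00.

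Within classes, 7 of the members gave 31 tests between genotypes, of which 0 were called, as for 0 of 98628 gene and class pairs (0.0%) by edgeR. DESeq2 called 19 of them, and 1672 (1.7%) reached p under 0.05 before adjustment. In hepatocyte-like barcodes the log2 differences were -0.24 for Krt8, -0.13 for Krt18 and -0.18 for Onecut1. In mesenchymal-like barcodes Krt19 averaged 128 ± 56.7 CPM (SD, n = 2) in homozygous and 56.5 ± 62.6 CPM (SD, n = 3) in other libraries, a difference of 0.88 that was 0.37 to 2.73 on leaving out each library, highest without Jag1Ndr/+ replicate 1, and Krt7 differed by 0.16. The one member with an unadjusted p under 0.05 was Krt8 in macrophage-like barcodes (-1.01, unadjusted p = 0.0057, adjusted p = 1.00). Other biliary, hepatoblast and hepatocyte, Notch pathway and mesothelial genes also gave 0 calls over all barcodes, with medians of -0.03, -0.01, 0.03 and 0.61 against -0.02 for all genes. With 2 against 3 libraries, even differences of several standard errors could go uncalled, as Krt8 in macrophage-like barcodes did at -1.01 (SE 0.27). The lack of calls therefore does not show that the genotypes were alike.

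Barcodes with 2 or more of Epcam, Krt19, Krt7 and Sox9 were rare, 36 of 113376 at E16.5 and 85 of 71117 at P3. They numbered 4, 4, 11, 11 and 6 in the E16.5 libraries and 46, 23, 12 and 4 in the P3 libraries. Most were Krt19 with Krt7, a pair found in 30 of them at E16.5 and 74 at P3, and most carried mesothelial genes: 27 of the 36 and 74 of the 85 had 2 or more of the 7. Of the 36, 22 were mesenchymal-like, and of the 85, 75 were. One of the 85, an unnamed barcode of library B with 11 Epcam and 9 Krt7 UMIs among 62341, held 11236 UMIs of Ins1, 16106 of Ins2 and 1628 of Iapp, hormone genes of pancreatic islets. In erythroid-like barcodes, which should lack these genes, such combinations were found in 2 of 66480 barcodes at E16.5 and 1 of 28224 at P3.

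**Figure D5:**
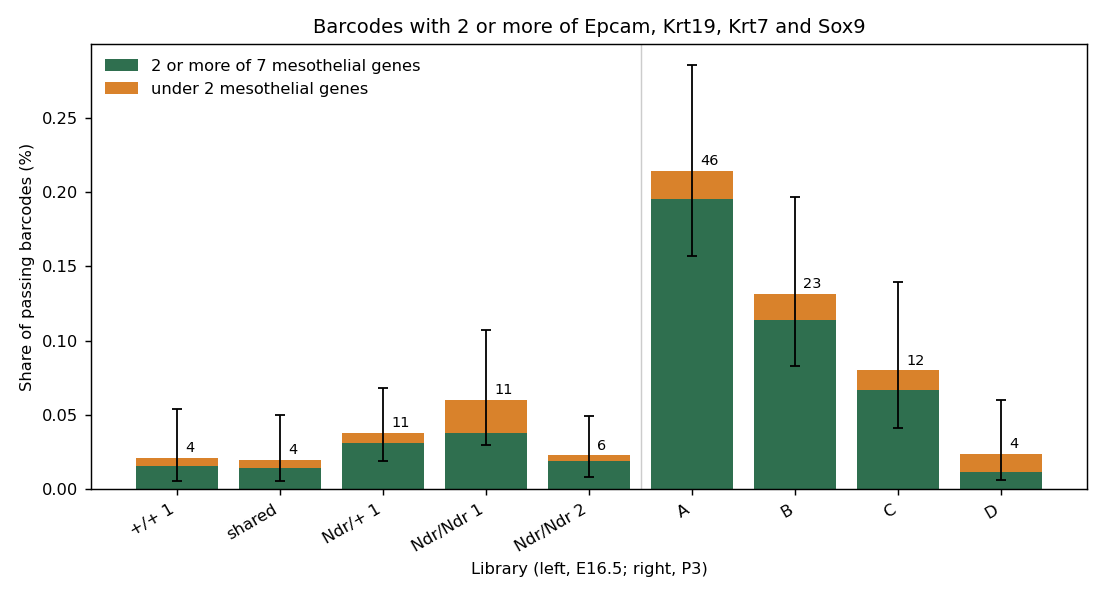
Share of passing barcodes (%, bars from 0) with 2 or more of Epcam, Krt19, Krt7 and Sox9 in each library, split by how many of the 7 mesothelial genes they carried. Numbers are barcodes, and error bars are exact 95% binomial intervals of the whole bar, which cover counting error only. Libraries A, B and C stand above the E16.5 libraries and library D does not.

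As a share of passing barcodes they made up 0.0322% ± 0.0172 (SD, n = 5) at E16.5 and 0.112% ± 0.0809 (SD, n = 4) at P3 (two-sided exact permutation test, p = 0.0476, smallest possible 0.0159). Library D, at 0.0235%, lay within the E16.5 range, and libraries A, B and C, at 0.214%, 0.131% and 0.0799%, lay above it. The difference was seen when every barcode was thinned to 1000 UMIs (exact permutation p = 0.0317), with shares of 0.00362% ± 0.00445 at E16.5 and 0.0344% ± 0.0248 at P3. These shares came from 1 random draw and rested on 0, 0, 1, 2 and 1 barcodes at E16.5 and 14, 7, 4 and 1 at P3. The stage difference did not pass at a mitochondrial limit of 10% (exact p = 0.143) or without Sox9 (exact p = 0.0952). It also did not pass when any single library except D was left out (exact p = 0.0571 to 0.107). Counting only barcodes with 2 or more mesothelial genes gave 0.0237% at E16.5 and 0.0969% at P3 (exact p = 0.0952), and counting only those with fewer gave 0.00852% at E16.5 and 0.0152% at P3 (exact p = 0.143). Between genotypes at E16.5 the share was 0.0413% ± 0.0263 (SD, n = 2) in homozygous and 0.0261% ± 0.0102 (SD, n = 3) in other libraries (exact permutation p = 0.4, smallest possible 0.2).

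These barcodes were set against hepatocyte-like barcodes of the same libraries, using libraries with at least 10 of them (Jag1Ndr/+ replicate 1 and Jag1Ndr/Ndr replicate 1 at E16.5; A, B and C at P3). Epcam, Krt19, Krt7 and Sox9 chose the barcodes and were not tested. At E16.5 Krt18 was lower by a log2 difference of -1.04 (adjusted p = 0.00763), where 20.3% of 10247 genes were called (9.74% higher and 10.5% lower), but the pair of libraries disagreed: 164 against 112 CPM in Jag1Ndr/+ replicate 1 and 36.6 against 118 CPM in Jag1Ndr/Ndr replicate 1. In Jag1Ndr/+ replicate 1, 16 of the 31 Krt18 UMIs came from 1 barcode rich in biliary genes, and without it the level was 86.0 CPM. The call of Krt18 was lost with DESeq2 (adjusted p = 0.298) and with library totals in edgeR (-0.41, adjusted p = 0.579), and Krt8 (-0.62) and Onecut1 (-0.62) did not pass. At P3, where 37.4% of 7201 genes were called (18.1% higher and 19.3% lower), Krt8 was higher (0.76, adjusted p = 0.047) at 445, 496 and 531 CPM against 124, 188 and 162 CPM in libraries A, B and C, and at 351, 477 and 450 CPM without the barcodes rich in biliary genes. The call of Krt8 held in 2 of 8 alternatives, other size factors and library totals, and was lost in the 6 others, with adjusted p from 0.000259 to 0.217 over the 8 (edgeR and DESeq2). Onecut1 was lower at P3 (-1.94, adjusted p = 0.0287), at 3.77 and 13.1 against 28.9 and 20.1 CPM in A and B, but higher in C at 64.3 against 31.4 CPM. These Onecut1 levels rested on 2, 3 and 4 UMIs, all in barcodes rich in biliary genes, and the 74 barcodes with 2 or more mesothelial genes held 0. The call of Onecut1 was lost with DESeq2 (-1.67, adjusted p = 0.156), with library totals (-0.95, adjusted p = 0.237) and without library A (-0.57, adjusted p = 0.561, both edgeR). Krt18 did not pass (-0.76, adjusted p = 0.062). Its level was 298, 422 and 177 CPM against 264, 470 and 127 CPM in A, B and C, lower only in B. All levels of these library B barcodes included the one with islet hormone genes, which held 7 Krt18 and 4 Krt8 UMIs among 62341. With 7 of the 20 other biliary genes, it was not among the barcodes rich in biliary genes. Levels without it were not computed, and the order for Krt18 in B may depend on it. The log2 difference of Krt18 was 0.25 with library totals alone, under which the median of all genes moved to 0.97. Krt18 passed as lower without a filter on low counts (-0.95, adjusted p = 0.0248) and without library C (-0.90, adjusted p = 0.0127, both edgeR).

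Spp1 in these P3 barcodes was at 58.5, 148 and 595 CPM in A, B and C, and hepatocyte-like barcodes had 0 UMIs. All 160 Spp1 UMIs of the 85 P3 barcodes, library D included, lay in 5 barcodes rich in biliary genes, and the 74 barcodes with 2 or more mesothelial genes held 0. All 7 mesothelial genes were called higher in that fit at both stages, but none of them had enough counts among hepatocyte-like barcodes alone, so they entered the fit only through the barcodes in which they are high and their fitted differences are not given. Upk3b is among the 7 genes that chose the barcodes with 2 or more mesothelial genes, so its counts there follow from that choice. They were 364 UMIs in the 27 such E16.5 barcodes and 791 in the 74 at P3. Dlk1, which mesothelial and stromal cells of the fetal liver also make, was at 2409 CPM in the P3 barcodes with 2 or more mesothelial genes and at 7.29 CPM in hepatocyte-like ones. Of 12 hepatoblast and hepatocyte genes, 8 were tested in the P3 fit. Dlk1 was higher and 7 were lower, against 18.1% and 19.3% of 7201 genes. At E16.5 all 12 were tested, and 1 was higher and 8 lower, against 9.74% and 10.5% of 10247 genes. Some of the 12, such as Alb and Afp, also served to name the hepatocyte-like class.

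A few barcodes did carry several biliary genes together. With a threshold chosen after seeing the values, 8 or more of the 20 other biliary genes, there were 3 such barcodes of 113376 at E16.5 (1 in Jag1Ndr/+ replicate 1 and 2 in Jag1Ndr/Ndr replicate 2) and 9 of 71117 at P3 (4, 3, 1 and 1). Jag1+/+ replicate 1, the shared library and Jag1Ndr/Ndr replicate 1 had 0, which allows shares of up to 0.0158%, 0.0145% and 0.0163%. All 3 at E16.5 and 5 of the 9 at P3 were hepatocyte-like. Genes of this list, such as Cldn3, were also found in the hepatocyte-like class, so the count alone does not mark duct cells. Among the 12, 7 also had at least 10 Spp1 UMIs and 2 or more of the 4 genes. The Jag1Ndr/+ replicate 1 barcode held 119 Spp1, 9 Epcam, 5 Krt7, 4 Sox9, 16 Krt8 and 16 Krt18 UMIs among 14508, with 201 Alb UMIs. The Jag1Ndr/Ndr replicate 2 barcode held 38 Spp1 and 13 Epcam UMIs among 26661, with 1142 Alb UMIs.

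At P3, each library gave at least 1 such barcode. In library A, 1 held 20 Epcam, 14 Krt19, 29 Krt8 and 21 Spp1 UMIs among 6420, with 3 Alb UMIs. That barcode was of no named class and held 0 Sox9, 6 Msln and 1 Cdx2 UMIs, and whether it came from a bile duct was not tested. Another in library A, with 15994 UMIs, was called a doublet. The barcodes in libraries B and D held all 8 genes, with 34 and 58 Spp1 UMIs and 3 Sox9 UMIs each, and the barcode in library C held 37 Spp1, 6 Epcam and 3 Sox9 UMIs. At most 1 of the 7 mesothelial genes was found in any of these 7 barcodes. Only 2 other barcodes of all 184493 reached 10 Spp1 UMIs, both monocyte-like and with no UMI of the other 7 genes. Such barcodes were too few to compare between genotypes or stages.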

How the data were processed

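Single-cell UMI counts of dissociated mouse livers were used. Per the file headers, the deposited matrices hold raw counts per gene and barcode, written by version 3.0.2 of the 10x software at P3 and 3.1.0 at E16.5. The submitters' processing notes name Cell Ranger 2.1.1, R 4.1.2, Seurat and mm10. Counting options, such as how reads shared by related keratin genes were treated, are not given in the sources used here. Symbols and identifiers came from the deposited gene lists.

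Identical or overlapping matrices were reduced to 9 libraries. Barcodes under 1000 UMIs or above 15% mitochondrial UMIs were left out. The passing barcodes held 141824631 to 253187351 UMIs per library at E16.5 and 72777843 to 188652014 at P3, which sets the precision of each CPM. Intervals and limits cover counting error only. Scrublet in scanpy 1.11.5 marked 9.86% to 13.4% of barcodes as doublets at E16.5 and 4.11% to 9.50% at P3. Marked barcodes were left out of classes and class tests and kept in sums over all barcodes and in the count of barcodes with 2 or more of the 4 genes. All passing barcodes, marked ones included, were clustered per stage (Leiden, igraph 0.11.9, resolution 1.0, 30 principal components, 15 neighbours). Clustering left out the 8 genes and 20 other biliary genes, and clusters were named from marker lists. Clusters with more than 50% marked barcodes were left unnamed and out of the kept cells.

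Counts were summed per library, or per library and class with at least 20 cells. They were tested with edgeR 4.0.16 in R 4.3.3 (quasi-likelihood test, its standard filter on low counts, TMM factors, threshold 0.05), after a test on simulated data. Benjamini-Hochberg adjustment ran over all genes of a fit, and for class tests over all pairs of class and gene. DESeq2 1.42.0, other filters and scalings, and leaving out each library were alternatives. Shares were compared by exact two-sided permutation over libraries in scipy 1.17.1. The named genes are all 8 members, and from each fixed list up to 4 genes past the threshold with the smallest adjusted p. The members and lists were chosen with earlier results of these data known.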

Additional observations from a re-analysis of the deposited data

Results flagged for a closer look

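Of 30 groups of libraries examined for a single library far from its neighbours, 5 were marked, where chance marks about 1 in 20. Krt8 over all barcodes at E16.5 was 11.5 CPM in the shared library, against 5.46 to 6.94 CPM in the 4 others. Krt18 in hepatocyte-like barcodes at E16.5 was 93.0 CPM in Jag1Ndr/Ndr replicate 2, against 115 to 119 CPM in the others. The other 3 rest on 1 to 3 UMIs. Krt19 in hepatocyte-like barcodes was 0.865 CPM in E16.5 Jag1+/+ replicate 1 (3 UMIs), against 0 to 0.153 CPM, and 0.289 CPM in P3 library A (1 UMI), against 0 in the others. Sox9 in hepatocyte-like barcodes was 2.22 CPM in P3 library C (2 UMIs), against 0 to 0.289 CPM.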

How the results depend on the processing

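Krt18 and Onecut1 in hepatocyte-like barcodes kept their direction and their side of the threshold between stages in every alternative run, and the causes of the changes below were not tested. The count of genes called between genotypes over all barcodes (0) became 5 with DESeq2, 2 without a filter, 1 with library totals alone and 0 to 1 on leaving out each library. Within classes (0) it became 19, 386, 1 and 0 to 59. For barcodes with 2 or more of the 4 genes against hepatocyte-like ones, DESeq2 called 814 genes at E16.5 (2077 by edgeR). At P3 library totals gave 4211 (2692 with factors) and leaving out each library 1333 to 3326. Library totals alone turned the log2 difference of Spp1 between stages to 0.061, of Krt8 in the E16.5 barcodes with 2 or more of the 4 genes to 0.0068 and of Krt18 in the P3 ones to 0.25. They moved the median of all genes between genotypes to -0.19.

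The difference in the share of barcodes with 2 or more of the 4 genes, 0.0152 percentage points between genotypes, became -0.00217 with 3 or more genes and -0.00344 to 0.0338 on leaving out each library. Between stages (0.0799) it became 0.0537 at 10% mitochondrial UMIs, 0.0793 without Sox9, 0.00667 with under 2 mesothelial genes (chosen after seeing the data, as was the 0.0732 with 2 or more) and 0.0459 to 0.109 on leaving out each library.

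Leaving out each library gave genotype log2 differences over all barcodes of -0.23 to 0.17 for Sox9, -0.47 to 0.84 for Krt7, -0.40 to 0.036 for Krt18, -0.61 to 0.11 for Spp1 and -0.95 to 0.52 for Onecut1. In hepatocyte-like barcodes it gave -0.61 to 0.05 for Krt8 and -0.996 to 0.83 for Onecut1, and in mesenchymal-like ones -0.70 to 1.79 for Krt7. Same-numbered libraries of the genotypes correlated at 0.285, 0.0124 and 0.206 in their deviations, and differently numbered ones at -0.285, -0.0124 and -0.206. With 2 homozygous libraries the values of either sign mirror each other by construction, so they cannot decide whether the numbers are pairs. The numbers were not taken as pairs. The replicate block turned the genotype difference to 0.028 for Sox9 and 0.26 for Krt7. Of P3 CPM values under other barcode filters, 21 of 96 left their 95% interval. The minimum of 2000 UMIs removed no barcode at E16.5 or in library C. It took libraries A, B and D from 21504, 17553 and 17036 to 19800, 15552 and 13252 barcodes. Leaving out a library was not run for the E16.5 barcodes with 2 or more of the 4 genes, since 1 library would remain. Few molecules limit Sox9 and Epcam in every class, and Krt19 and Krt7 outside the mesenchymal-like one. Levels without the barcodes rich in biliary genes were added after seeing the data.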
